A study of Homo sapiens with 6 samples.

Results

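ITGB4, the gene of the integrin β4 subunit, was described together with genes that act with it in adhesion to laminin. The set named 9 genes: ITGB4, which was chosen because it had the largest fall with 8OH-G miR-483, and ITGA6, ITGA3, ITGB1, ITGA7, CD151, LAMA5, LAMB3 and PLEC, which were chosen by role with earlier results of these data known. Of these, 8 had a row among the 17588 uniquely named rows, and ITGA7 was not analysed here. The cells were HUVECs, a primary culture of the endothelium of the umbilical vein, bought from a supplier. The 8OH-G miR-483 group (3 libraries) received the microRNA with 8OH-G, the usual short form of 8-hydroxyguanine, an oxidised guanine, and the miR-483 group (3 libraries) received hsa-miR-483. Both were given by lipid transfection by the same protocol, and total RNA was taken on day 2, 48 hours later. The labels state neither which guanine was oxidised nor which arm of the microRNA was used. A scramble control named in the labels was not analysed here, so each value below compares the 2 microRNAs with each other and not with untreated cells. By its title, the study asked whether this change in the microRNA alters the messenger RNAs it acts on.

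Integrins are pairs of an α and a β subunit that span the membrane and bind matrix outside the cell. The subunit β4 pairs with α6 alone, has a long cytoplasmic tail that binds plectin, and in epithelia anchors keratin filaments at hemidesmosomes. The subunit β1 pairs with α3, α6, α7 and many other α subunits and connects to actin instead. Both kinds of receptor bind laminins, trimers of an α, a β and a γ chain that form the sheet of the basement membrane on which endothelium rests.

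Levels are in FPKM (fragments scaled by gene length and by library total), a unit that allows different genes to be compared and that was inferred from the values. Totals per library ran from 1598260 to 1687283 FPKM with 8OH-G miR-483 and from 1396537 to 1440422 FPKM with miR-483, so the groups did not overlap. Mitochondrial rows took 71.3% to 76.6% of them. The size factors of median-ratio scaling did not overlap either, at 1.0346 to 1.0449 with 8OH-G miR-483 and 0.9561 to 0.9672 with miR-483. Read depth is unknown and no counting interval can be given. Separate cultures or donors are not named in the labels; the p-values therefore speak only of the spread among these libraries, which may be technical. All 9 endothelial markers examined were above 1 FPKM in every library, and their sum was 939 to 1137 FPKM with 8OH-G miR-483 and 1718 to 1779 FPKM with miR-483.

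Promoters of ITGA6, which fell, and of ITGB1 and LAMB3, which did not, are shown first. RefSeq windows on GRCh38.p14 ran from 250 bases before to 50 bases after a start. They are described for 4 of the 9 genes: 2 windows of ITGA6, 2 of ITGB1, 1 of LAMA5 and 3 of LAMB3. Windows of ITGB4, ITGA3 and PLEC, which also fell, were not analysed here. The motif counts therefore do not compare genes that fell with genes that did not. Both windows of ITGA6 and the first listed of ITGB1 and of LAMB3 are printed, and the other 4 are given by their motif counts. Capitals mark CACCC or its reverse complement GGGTG, letters known as a binding motif of Krüppel-like factors. The lines give ITGA6 at its downstream start (chr2:172427336-172427635, plus strand) and its upstream start (chr2:172427086-172427385, plus strand), which share bases, ITGB1 (chr10:32958181-32958480, minus strand) and LAMB3 (chr1:209652376-209652675, minus strand).
ITGA6 downstream start: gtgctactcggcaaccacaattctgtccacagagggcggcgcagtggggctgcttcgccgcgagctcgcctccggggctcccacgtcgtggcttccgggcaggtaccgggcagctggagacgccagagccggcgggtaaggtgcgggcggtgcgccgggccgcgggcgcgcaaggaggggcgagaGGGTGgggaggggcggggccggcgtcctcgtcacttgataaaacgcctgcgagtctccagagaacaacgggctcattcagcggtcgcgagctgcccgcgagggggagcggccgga
ITGA6 upstream start: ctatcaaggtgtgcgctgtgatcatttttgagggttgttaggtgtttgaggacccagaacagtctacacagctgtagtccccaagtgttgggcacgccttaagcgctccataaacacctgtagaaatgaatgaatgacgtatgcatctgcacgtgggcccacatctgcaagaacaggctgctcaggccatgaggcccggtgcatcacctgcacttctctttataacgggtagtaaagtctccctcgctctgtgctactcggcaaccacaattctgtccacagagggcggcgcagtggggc
ITGB1: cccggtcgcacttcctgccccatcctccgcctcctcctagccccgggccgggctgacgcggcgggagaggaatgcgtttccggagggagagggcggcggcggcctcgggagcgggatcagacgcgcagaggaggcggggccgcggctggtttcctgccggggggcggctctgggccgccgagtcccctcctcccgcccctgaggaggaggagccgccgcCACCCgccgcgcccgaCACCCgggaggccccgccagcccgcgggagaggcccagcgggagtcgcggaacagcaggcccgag
LAMB3: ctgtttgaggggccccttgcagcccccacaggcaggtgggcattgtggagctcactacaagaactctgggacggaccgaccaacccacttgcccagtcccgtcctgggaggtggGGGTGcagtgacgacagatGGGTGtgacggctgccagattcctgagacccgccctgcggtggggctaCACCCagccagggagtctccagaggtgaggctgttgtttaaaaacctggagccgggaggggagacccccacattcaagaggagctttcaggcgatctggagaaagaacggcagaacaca
The motif occurred 1 time at the downstream start of ITGA6, 0 times at its upstream start, 2 times in the printed window of ITGB1 and 3 times in that of LAMB3. Of the windows not printed, it occurred 0 times in ITGB1, 1 time in LAMA5, and 3 and 0 times in LAMB3. The window of LAMB3 with 3 overlaps the printed one, and these are the same 3 sites. Of 35093 promoter windows of the same length, 59.9% held at least 1. The motif GGGCGG (or CCGCCC), bound by SP factors, occurred 3 times at the downstream and 1 time at the upstream start of ITGA6, 3 times in the printed and 0 times in the other window of ITGB1, 5 times in LAMA5 and 1 time in each of the 3 windows of LAMB3, against 44.9% of all windows with at least 1. The match in the printed window of LAMB3 and that in the window overlapping it are the same site. The AP-1 motif TGANTCA was in 1 of the 8 windows, a window of LAMB3 that is not printed, and in 7.71% of all windows. The motifs were chosen with the results known, matches were sought on both strands, matches of different motifs can share bases, and a match describes the window only.

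ITGB4 had 8.01, 8.88 and 7.91 FPKM in the 8OH-G miR-483 libraries, against 324, 302 and 308 FPKM in the miR-483 libraries. The groups lay far apart, with each library near its group's mean: 8.27 ± 0.533 FPKM with 8OH-G miR-483 and 312 ± 11.6 FPKM with miR-483 (mean ± SD, n = 3 libraries each, as for all means below). The mean with 8OH-G miR-483 was 2.65% of that with miR-483. On the log2(FPKM + 1) scale the difference was -5.08, and no test is given for it because this contrast chose the gene. By level among 12216 genes tested, ITGB4 stood at rank 6673 in the 8OH-G miR-483 cells and at rank 176 in the miR-483 cells. In these bulk samples, fewer cells with a transcript and less of it per cell cannot be told apart.

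ITGB4 had the largest fall on the log2(FPKM + 1) scale, where changes of low genes are understated. The next in order were PI16, a peptidase inhibitor gene, at -4.57, LCN6, a lipocalin gene, at -4.21 and GDF3, a TGF-beta family ligand gene, at -3.86. With a pseudocount of 0.1 in place of 1, PI16 was at rank 1 with -6.58 and ITGB4 at rank 3 with -5.22. By ratio of means ITGB4 ranked at 7, and by difference of mean FPKM among nuclear genes it ranked at 9, with a difference of -303 FPKM. PI16, the gene just outside the choice, averaged 0.185 ± 0.0177 FPKM with 8OH-G miR-483 and 27.4 ± 4.21 FPKM with miR-483. LCN6 and GDF3 were at 0.809 ± 0.0539 and 1.47 ± 0.492 FPKM with 8OH-G miR-483, against 32.5 ± 2.45 and 34.5 ± 3.19 FPKM with miR-483, so all 3 had lower levels than ITGB4 in both groups.

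**Figure D1:**
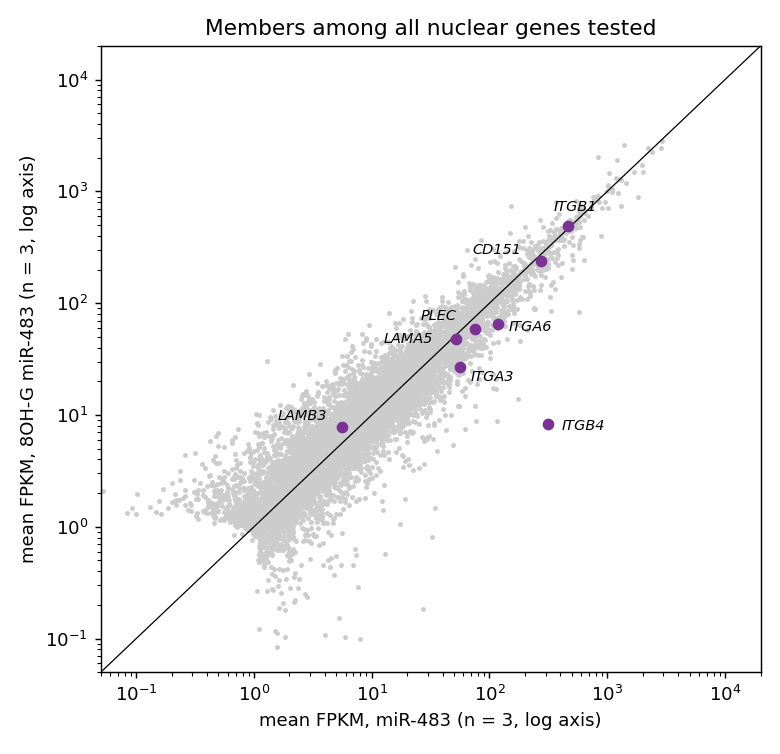
Mean FPKM of each nuclear gene tested in 8OH-G miR-483 cells (vertical, log axis) against miR-483 cells (horizontal, log axis), n = 3 libraries each, with the line of equal levels and the 8 genes in purple. ITGB4 lies far below the line at 8.27 against 312 FPKM, ITGA3 and ITGA6 lie moderately below it, and ITGB1 lies on it.

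On chromosome 17 in RefSeq, ITGB4 overlaps the galactokinase gene GALK1. GALK1 had 12.8, 15.7 and 11.3 FPKM in 8OH-G miR-483 libraries, against 9.83, 9.96 and 10.4 FPKM in miR-483 libraries, so it did not fall with ITGB4. It was higher by 0.36 on the log2 scale (SE 0.107, adjusted p = 0.02, limma). That call was lost after median-ratio scaling (0.0667), after quantile normalization (0.116) and without miR-483 replicate 1 (0.0558). GALK1 was looked at after its values were seen. Whether reads were counted by strand is not given in the sources used here.

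ITGB1, the β subunit shared by most laminin and collagen receptors, had 482, 497 and 500.2 FPKM with 8OH-G miR-483, against 489, 440.4 and 474 FPKM with miR-483. These values overlap. The log2 fold change was 0.08 (SE 0.072, adjusted p = 0.393, limma), close to the median of 0.10 over all genes, and -0.04 after median-ratio scaling. ITGB4 therefore made up 1.64%, 1.76% and 1.56% of the summed β4 and β1 FPKM in the 8OH-G miR-483 libraries, against 39.9%, 40.7% and 39.4% in the miR-483 libraries. The summed β4 and β1 level was 501 ± 9.99 FPKM in 8OH-G miR-483 cells and 779 ± 35.5 FPKM in miR-483 cells.

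ITGA6, the α subunit that can pair with either β4 or β1, had 63.4, 65.9 and 65.9 FPKM with 8OH-G miR-483, against 123, 116 and 116 FPKM with miR-483. Every 8OH-G miR-483 library lay below every miR-483 library, and the mean fell to 54.9% of that in miR-483 cells. On the log2(FPKM + 1) scale ITGA6 changed by -0.85 (SE 0.0625, adjusted p = 1.15e-05, limma). ITGA6 to ITGB4 stood at 7.91, 7.42 and 8.32 to 1 in FPKM in the 8OH-G miR-483 libraries, against 0.380, 0.385 and 0.375 to 1 in the miR-483 libraries. In the miR-483 cells the β4 gene was thus at a higher level than that of its α partner, and in the 8OH-G miR-483 cells at a lower one. The difference of means was -53.4 FPKM for ITGA6, against -303 FPKM for ITGB4.

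ITGA3, the α subunit of the laminin receptor α3β1, had 27.7, 26.7 and 27.0 FPKM with 8OH-G miR-483, against 56.0, 55.1 and 56.5 FPKM with miR-483. The groups did not overlap, and the mean was 2.06-fold lower in 8OH-G miR-483 cells (log2 fold change -1.02, SE 0.0575, adjusted p = 3.58e-06, limma). The genes of α3 and α6 summed to 92.2 ± 1.00 FPKM with 8OH-G miR-483 and 174 ± 4.35 FPKM with miR-483. In FPKM, ITGA6 stood at 2.40 ± 0.0965 times ITGA3 in 8OH-G miR-483 cells and at 2.12 ± 0.0777 times in miR-483 cells, and the libraries of the groups did not overlap in this ratio. Both α genes fell, and the gene of their shared β1 partner was not called.

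**Figure D2:**
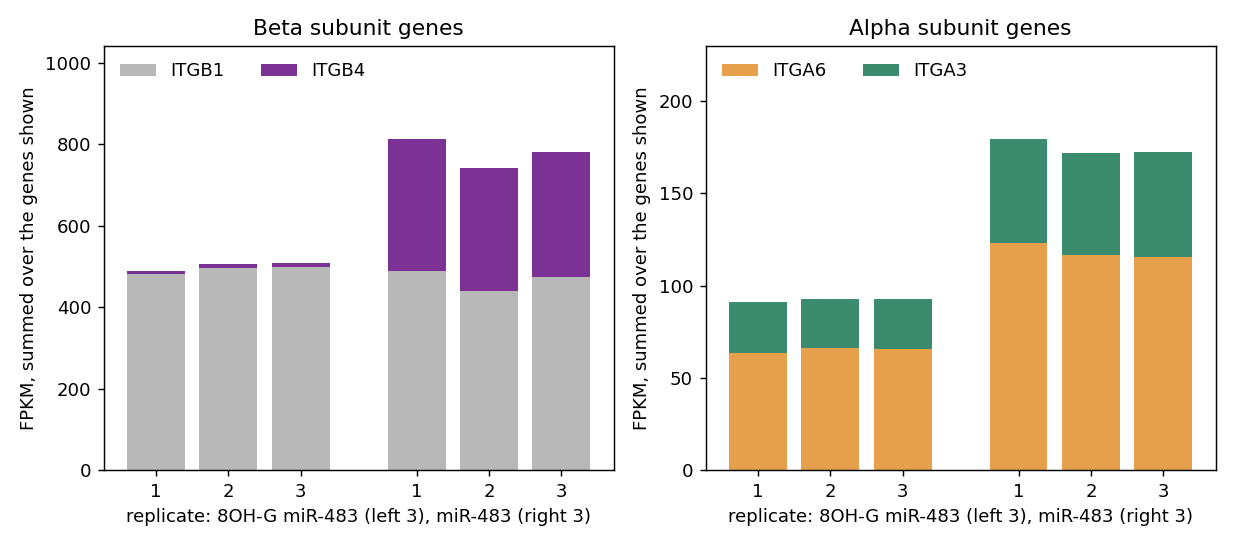
FPKM of the integrin β genes (left, ITGB1 grey and ITGB4 purple) and α genes (right, ITGA6 orange and ITGA3 green), stacked per library, with the 3 libraries of 8OH-G miR-483 left of the 3 of miR-483. ITGB4 is a thin cap of 7.91 to 8.88 FPKM on ITGB1 with 8OH-G miR-483 and adds 302 to 324 FPKM with miR-483, and both α genes are lower with 8OH-G miR-483.

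CD151, a tetraspanin that binds laminin-binding integrins in the membrane, had 246, 249 and 223 FPKM with 8OH-G miR-483, against 258, 288 and 279 FPKM with miR-483. The groups did not overlap, but the gap was small and the gene missed the threshold (log2 fold change -0.20, SE 0.0782, adjusted p = 0.0584, limma). It passed after median-ratio scaling (0.00748), after quantile normalization (0.0219), with a replicate block (0.0389) and without miR-483 replicate 1 (0.0452). PLEC, the gene of plectin, which ties the β4 tail to intermediate filaments, had 58.0, 55.6 and 63.1 FPKM with 8OH-G miR-483, against 81.0, 70.3 and 72.6 FPKM with miR-483. Its groups did not overlap, and PLEC fell by 0.34 on the log2(FPKM + 1) scale (SE 0.0795, adjusted p = 0.0069, limma). In FPKM, PLEC was at 7.16 ± 0.861 times ITGB4 in 8OH-G miR-483 cells and at 0.239 ± 0.00902 times in miR-483 cells.

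LAMA5, an α chain of vascular laminins, which are ligands of α6 and α3 integrins, had 48.4, 43.8 and 51.5 FPKM with 8OH-G miR-483, against 53.7, 45.9 and 57.1 FPKM with miR-483. The groups overlapped (log2 fold change -0.12, SE 0.0963, adjusted p = 0.321, limma). LAMB3, a β chain of epithelial laminin, had 7.89, 6.70 and 8.62 FPKM with 8OH-G miR-483, against 5.81, 6.0 and 5.05 FPKM with miR-483. It was the one gene of the set that rose, by 0.40 (SE 0.1, adjusted p = 0.0093, limma), and it missed the threshold after quantile normalization (log2 fold change 0.24, adjusted p = 0.079).

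Leaving out ITGB4, 3 of the 7 other genes fell (ITGA6, ITGA3 and PLEC), 1 rose (LAMB3) and 3 did not pass (ITGB1, CD151 and LAMA5). Over all 12216 genes tested, 55.4% were called, 20.4% lower and 35.0% higher, and the groups did not overlap in 63.3%, as they did not in 5 of these 7. The split over all genes was 2493 lower and 4279 higher as deposited, and 3326 lower and 3327 higher after median-ratio scaling, while over the 7 genes it was 3 lower and 1 higher as deposited, and 4 lower and 1 higher after that scaling. A call with a log2 fold change of -1 or lower was made for 2.60% of all genes, and for ITGA3 among the 7, and one of 1 or higher for 5.39% of all genes and 0 of the 7. Since the genes were chosen with these results known, nothing is read from the counts. Over all genes the median change was 0.10 as deposited, -0.003 under median-ratio scaling and -0.011 under quantile normalization. Against the median of all genes as deposited, the log2 fold changes were -0.95 for ITGA6, -1.11 for ITGA3, -0.43 for PLEC, -0.29 for CD151, -0.22 for LAMA5, -0.02 for ITGB1 and 0.30 for LAMB3.

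**Figure D3:**
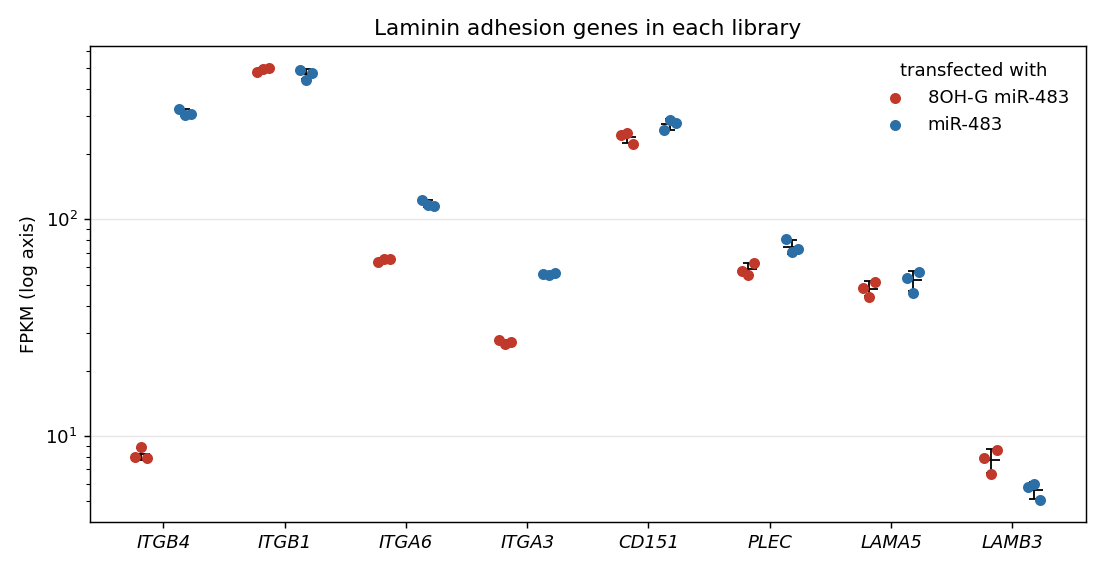
FPKM (log axis) of the 8 genes in each library, with 8OH-G miR-483 in red left of miR-483 in blue. Points are libraries, and black bars give the mean and SD (n = 3). ITGB4 is separated by far more than any other gene, ITGA6 and ITGA3 are clearly apart, and ITGB1 and LAMA5 overlap.

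In order of level the genes ran ITGB1, CD151, ITGA6, PLEC, LAMA5, ITGA3, ITGB4 and LAMB3 in the 8OH-G miR-483 cells. Of these neighbours, ITGB4 and LAMB3 overlapped in FPKM and the others did not. In the miR-483 cells the order was ITGB1, ITGB4, CD151, ITGA6, PLEC, ITGA3, LAMA5 and LAMB3, where ITGA3 and LAMA5 overlapped. ITGB4 thus stood next to ITGB1 in one group and next to LAMB3, at 7.73 ± 0.971 FPKM, in the other. The spread between libraries, as SD over mean, was 6.44% for ITGB4 with 8OH-G miR-483 and 3.72% with miR-483, and over the other 7 genes it was lowest for ITGA3 (1.87% and 1.31%) and at its largest for LAMB3 with 8OH-G miR-483 (12.6%) and for LAMA5 with miR-483 (10.9%).

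The genes whose pattern over the 6 libraries was nearest to that of ITGB4, by root mean square distance between log2(FPKM + 1) values centred on each gene's mean, were PI16 (distance 0.293), LCN6 (0.447), GDF3 (0.643), KLF2 (0.773) and ACP5 (0.847). KLF2, a flow-induced transcription factor of endothelium, had 16.8, 13.1 and 12.1 FPKM with 8OH-G miR-483, against 173, 172 and 178 FPKM with miR-483. ACP5, a secreted acid phosphatase, averaged 8.88 ± 3.94 FPKM in 8OH-G miR-483 cells and 116 ± 32.6 FPKM in miR-483 cells. No gene of the laminin adhesion set was among them: ITGA3, the nearest, ranked at 298 of 12215 genes with a distance of 2.03. With libraries this close within each group, the distance mainly follows the size of the fall, by which ITGB4 was chosen. PI16, LCN6 and GDF3 are also the next largest falls, so nothing is read from this order.

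The other laminin chain genes were read from a list of 11 chains, of which 7 were tested, LAMA5 and LAMB3 included. Of these LAMB3 rose and LAMB2 fell, and the median log2 fold change was -0.04 (0.10 over all genes). LAMA3, an α chain of epithelial laminin, was at 2.22 ± 0.386 FPKM with 8OH-G miR-483 and 3.02 ± 0.476 FPKM with miR-483 and missed the threshold (log2 fold change -0.32, adjusted p = 0.0507, limma). It passed after median-ratio scaling (0.0224), after quantile normalization (0.0127), with a replicate block (0.00841), without 8OH-G miR-483 replicate 3 (0.045) and without miR-483 replicate 2 (0.0177). LAMA3 was named after its values were seen.

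The vascular chains were at higher levels. LAMA4, LAMB1 and LAMC1, which together form an endothelial laminin, were at 162 ± 4.49, 206 ± 3.32 and 80.0 ± 5.23 FPKM with 8OH-G miR-483, against 161 ± 4.79, 212 ± 5.08 and 74.8 ± 4.32 FPKM with miR-483. These chains did not pass (adjusted p = 0.974, 0.594 and 0.319, limma), and their log2 fold changes were 0.003 (-0.11 after median-ratio scaling), -0.04 and 0.09. LAMB2, another β chain of vascular laminins, had 62.9, 57.6 and 52.6 FPKM with 8OH-G miR-483, against 99.5, 94.9 and 102 FPKM with miR-483, and fell by 0.77 (SE 0.0788, adjusted p = 7.1e-05, limma). LAMB1 was at 3.58 ± 0.263 times LAMB2 in 8OH-G miR-483 cells and at 2.15 ± 0.0330 times in miR-483 cells.

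**Figure D4:**
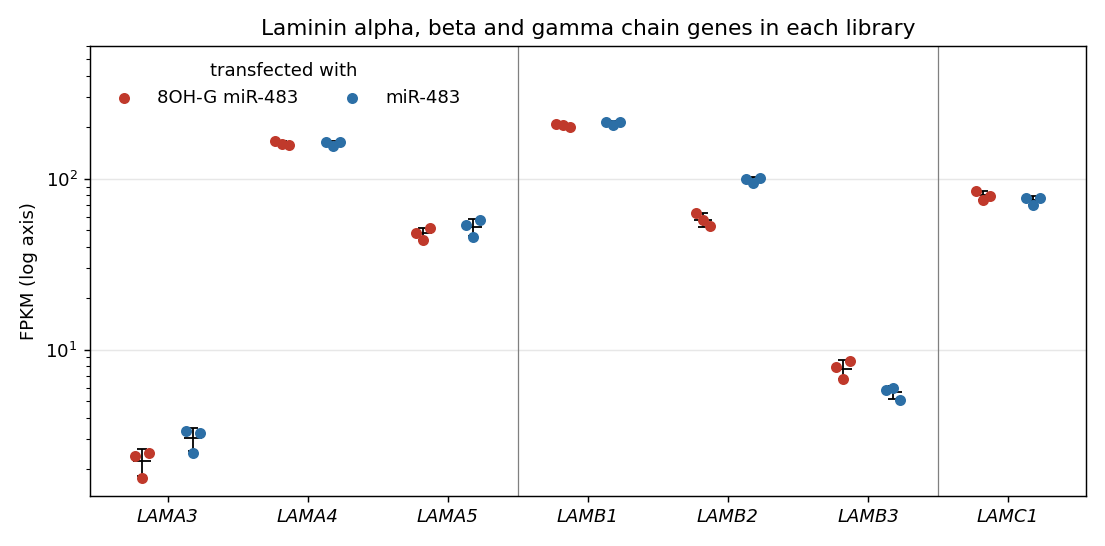
FPKM (log axis) of 7 laminin chain genes, α chains left, β chains in the middle and a γ chain right, with 8OH-G miR-483 in red left of miR-483 in blue. Points are libraries and black bars the mean and SD (n = 3). LAMB3 is higher and LAMB2 lower with 8OH-G miR-483, and LAMA4 and LAMB1 overlap.

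Of 8 genes of the hemidesmosome and of proteins that bind the β4 tail, PLEC and CD151 included, 3 fell and 2 rose (20.4% and 35.0% of all genes), with a median of -0.14. DST, which encodes BPAG1, a cytolinker related to plectin, fell to 14.2 ± 2.46 FPKM with 8OH-G miR-483, against 20.0 ± 1.20 FPKM with miR-483 (adjusted p = 0.0073, limma). The hemidesmosomal collagen gene COL17A1 was low, at 2.05 ± 0.457 FPKM with 8OH-G miR-483 and 3.46 ± 0.0678 FPKM with miR-483 (adjusted p = 0.00271, limma). PLEC, DST and COL17A1 were each lower in 8OH-G miR-483 cells by less than 1 on the log2 scale. PTPN11, the phosphatase SHP2, rose to 38.3 ± 2.64 FPKM with 8OH-G miR-483, against 25.3 ± 1.76 FPKM with miR-483 (adjusted p = 0.000326, limma). EIF6, a ribosome factor also found as a binder of the β4 tail, rose to 71.8 ± 5.32 FPKM with 8OH-G miR-483, against 56.1 ± 5.30 FPKM with miR-483 (adjusted p = 0.00976, limma). The adapter gene SHC1 did not pass, at 124 ± 8.36 FPKM with 8OH-G miR-483 and 126 ± 6.39 FPKM with miR-483.

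Among the basement membrane partners of laminin, 4 of 7 fell and 3 rose, where 20.4% of all genes were called lower and 35.0% higher, and the median was -0.32 (0.10 over all genes). NTN4, a netrin that binds laminin γ chains and disrupts laminin networks, had 68.2, 60.6 and 60.9 FPKM with 8OH-G miR-483, against 190.0, 166 and 183 FPKM with miR-483. It was 2.84-fold lower in 8OH-G miR-483 cells (log2 fold change -1.49, SE 0.0804, adjusted p = 2.85e-06, limma). The linker nidogen 1 (NID1) fell to 38.9 ± 2.20 FPKM with 8OH-G miR-483, against 72.4 ± 6.20 FPKM with miR-483, while its relative NID2 rose to 4.28 ± 1.06 FPKM with 8OH-G miR-483, against 2.12 ± 0.188 FPKM with miR-483. The heparan sulfate proteoglycan genes HSPG2 (perlecan) and AGRN (agrin) fell by 0.52 and 0.32 on the log2(FPKM + 1) scale. The collagen IV gene COL4A1 rose to 124 ± 18.2 FPKM with 8OH-G miR-483, against 78.0 ± 4.82 FPKM with miR-483. COL4A2 rose less, by 0.27 (adjusted p = 0.0344, limma), and missed the threshold after median-ratio scaling (0.166), after quantile normalization (0.0631) and without 8OH-G miR-483 replicate 1 or 2 (0.123 and 0.0866) or any miR-483 replicate (0.0531, 0.0896 and 0.0875).

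Other cell surface laminin receptors went both ways: 2 of 7 tested rose and 1 fell (35.0% and 20.4% of all genes), with a median of 0.10. The syndecan genes SDC1 and SDC4, heparan sulfate co-receptors, rose, SDC1 to 3.58 ± 0.108 FPKM with 8OH-G miR-483, against 0.721 ± 0.0328 FPKM with miR-483, and SDC4 to 9.25 ± 0.422 FPKM with 8OH-G miR-483, against 6.31 ± 0.205 FPKM with miR-483. SDC1 was below 1 FPKM in every miR-483 library, so it was tested, and counted here, only through its level with 8OH-G miR-483. BCAM, a receptor of the laminin α5 chain, fell to 7.16 ± 1.25 FPKM with 8OH-G miR-483, against 9.77 ± 0.294 FPKM with miR-483. Dystroglycan (DAG1) did not pass (adjusted p = 0.112, limma) but did after median-ratio scaling (0.0377), with a replicate block (0.0293) and without miR-483 replicate 2 (0.00914). RPSA, the ribosomal protein also known as the laminin receptor, averaged 677 ± 45.7 FPKM with 8OH-G miR-483 and 632 ± 47.1 FPKM with miR-483 and did not pass, with a log2 fold change of 0.10 that turned to -0.01 after median-ratio scaling. It has many pseudogenes and its level is uncertain.

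Of 10 tetraspanins and immunoglobulin partners tested, CD151 included, 3 rose and 2 fell (35.0% and 20.4% of all genes), with a median of -0.05. CD82 rose to 11.3 ± 1.14 FPKM with 8OH-G miR-483, against 6.02 ± 0.417 FPKM with miR-483 (log2 fold change 0.80, adjusted p = 9.28e-05, limma), and TSPAN8 and TSPAN4 rose by 0.60 and 0.39. CD37, mainly a leukocyte tetraspanin, fell to 0.686 ± 0.195 FPKM with 8OH-G miR-483, against 1.92 ± 0.641 FPKM with miR-483. It was below 1 FPKM in every 8OH-G miR-483 library, so it was tested, and counted here, only through its level with miR-483. CD81 fell by 0.25 (adjusted p = 0.0381, limma), a call lost without 8OH-G miR-483 replicate 1 or 3 (0.0814 and 0.109), without any miR-483 replicate (0.0535, 0.118 and 0.064) and with no filter on low values (0.0504). CD9 and CD63, the tetraspanins at the highest levels in the list, did not pass.

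Of 13 tested activators and adapters of integrin tails, 5 rose and 2 fell, with a median of 0.12. Over all genes 35.0% were called higher and 20.4% lower, with a median of 0.10. FERMT3, the kindlin-3 gene, had 63.7, 66.9 and 60.4 FPKM with 8OH-G miR-483, against 22.0, 24.7 and 24.6 FPKM with miR-483 (log2 fold change 1.39, SE 0.0732, adjusted p = 2.64e-06, limma). Vinculin (VCL) and talin 1 (TLN1) rose by 0.36 and 0.34. The PINCH-2 gene LIMS2 had 3.54, 3.71 and 3.10 FPKM with 8OH-G miR-483, against 16.6, 21.1 and 17.2 FPKM with miR-483, a mean 5.30-fold lower in 8OH-G miR-483 cells (log2 fold change -2.11, SE 0.101, adjusted p = 1.81e-06, limma). SHARPIN, an inhibitor of integrin activation, fell by 0.37. Among the 5 that rose, PXN and FERMT2, the smallest rise, missed the threshold under median-ratio scaling (adjusted p = 0.0891 and 0.23, limma) and quantile normalization (0.0659 and 0.18). PXN also missed it without 8OH-G miR-483 replicate 3 (0.0636) or miR-483 replicate 1 or 2 (0.054 and 0.0636), and FERMT2 without 8OH-G miR-483 replicate 2 or 3 (0.0606 and 0.0543) or miR-483 replicate 2 or 3 (0.08 and 0.0639).

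Of 9 tested integrin subunit genes outside the set, 3 fell and 0 rose (20.4% and 35.0% of all genes), with a median of -0.08. ITGA10, a collagen-binding α subunit, had 4.27, 3.32 and 2.5 FPKM with 8OH-G miR-483, against 27.9, 23.8 and 23.3 FPKM with miR-483, a mean 7.43-fold lower. The fibronectin receptor gene ITGA5 fell to 393 ± 21.3 FPKM with 8OH-G miR-483, against 605 ± 7.28 FPKM with miR-483, and ITGB5 to 26.6 ± 1.16 FPKM with 8OH-G miR-483, against 36.6 ± 1.43 FPKM with miR-483. ITGA2 and ITGB3 did not pass (adjusted p = 0.396 and 0.359, limma), although ITGB3 passed after median-ratio scaling (0.0457). Over all the lists without the set itself, 15 of 55 tested genes rose and 15 fell, against 35.0% and 20.4% of all genes. Among these 55 genes the extremes were ITGA10 at -2.59 and SDC1 at 1.41, and SDC1 passed the filter only through the 8OH-G miR-483 libraries.

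**Figure D5:**
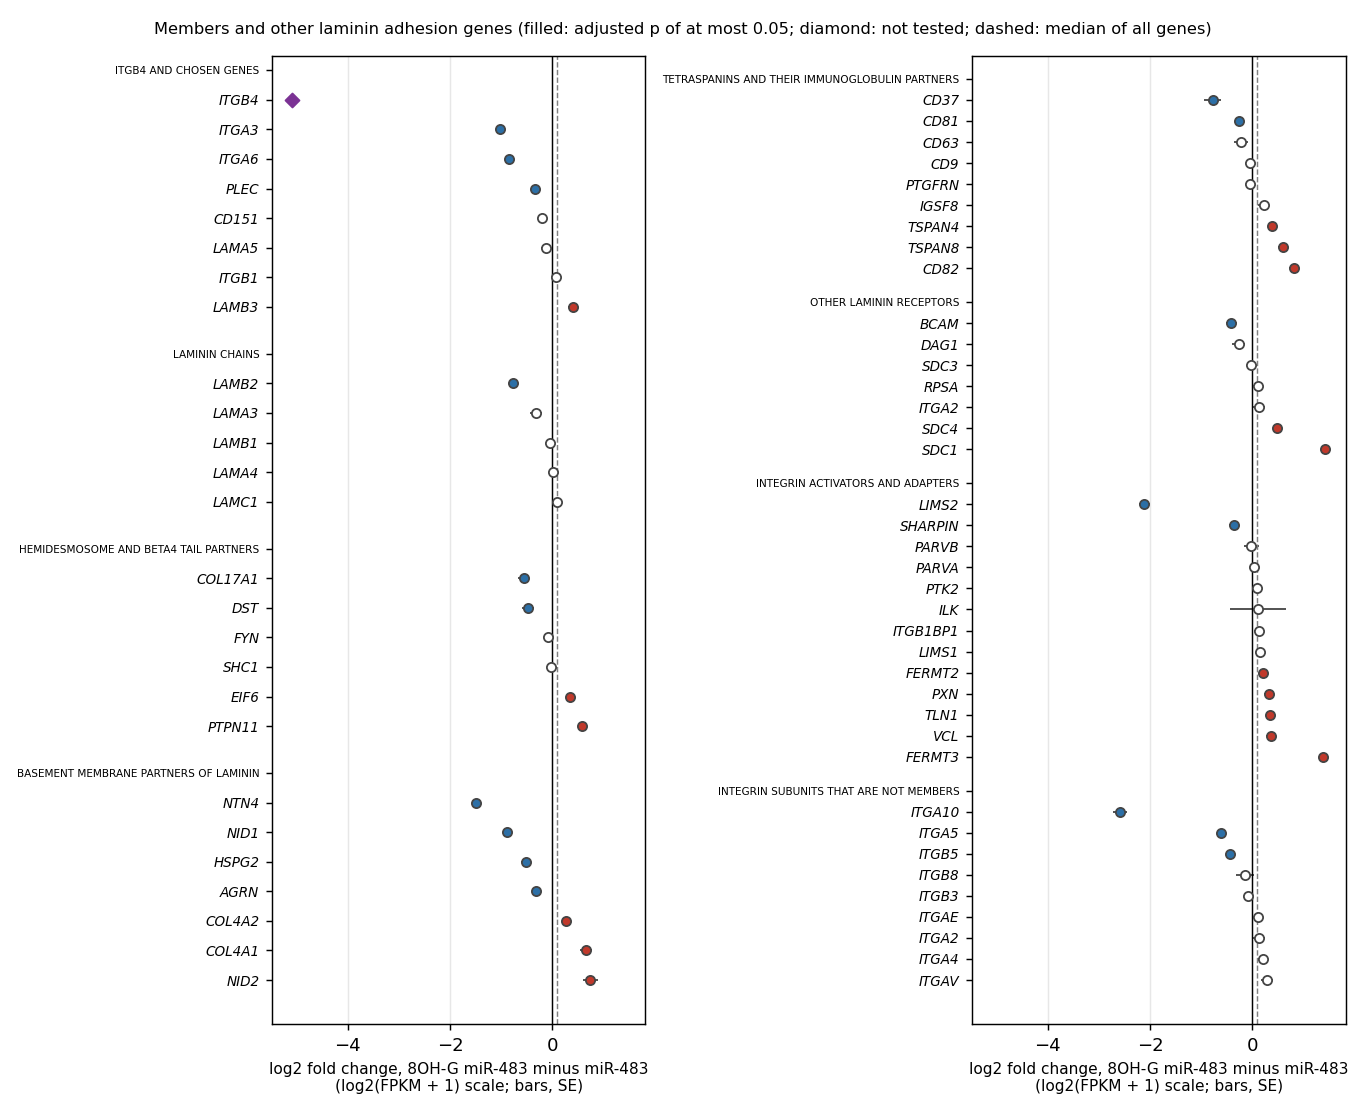
Log2 fold change (8OH-G miR-483 minus miR-483, log2(FPKM + 1) scale) of the set and of the other laminin adhesion genes tested, with bars for SE. Filled points passed an adjusted p of 0.05, red higher and blue lower, and the diamond is ITGB4, for which no test is given. ITGB4 at -5.08 lies left of ITGA10 at -2.59 and LIMS2 at -2.11, and the dashed line is the median of all genes at 0.10.

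Markers of the labelled cell type and of other cell types are given beside these values. Of 9 endothelial markers, 6 fell, among them TEK (24.1 ± 0.476 FPKM with 8OH-G miR-483, 86.1 ± 3.58 FPKM with miR-483) and VWF (243 ± 35.3 FPKM with 8OH-G miR-483, 509 ± 12.2 FPKM with miR-483), and 0 rose, where 20.4% of all genes were called lower and 35.0% higher. Of 11 epithelial markers, 5 had a row and summed to 131 to 148 FPKM with 8OH-G miR-483 and 75.3 to 86.4 FPKM with miR-483. KRT18 made up most of this, at 120.5 ± 7.83 FPKM with 8OH-G miR-483 and 61.1 ± 3.76 FPKM with miR-483, and was called higher. KRT15 was called higher too, at 2.10 ± 0.185 FPKM with 8OH-G miR-483 and 0.931 ± 0.396 FPKM with miR-483, and COL17A1 lower, at 2.05 ± 0.457 FPKM with 8OH-G miR-483 and 3.46 ± 0.0678 FPKM with miR-483. EPCAM, CDH1, KRT5, KRT14, TP63 and DSG3 were not analysed here. Of 5 Schwann cell markers, 2 had a row, and they summed to 2.29 to 3.34 FPKM with 8OH-G miR-483 and 1.61 to 2.02 FPKM with miR-483. Of 6 mural markers, 2 summed to 1.78 to 2.01 FPKM with 8OH-G miR-483 and 1.89 to 2.06 FPKM with miR-483. Of 5 leukocyte markers, 2 summed to 6.49 to 7.79 FPKM with 8OH-G miR-483 and 14.2 to 17.7 FPKM with miR-483, and of 4 lymphatic endothelial markers, 3 summed to 23.7 to 31.4 FPKM with 8OH-G miR-483 and 36.1 to 38.0 FPKM with miR-483. Those 2 leukocyte markers, CD68 and LYZ, were called lower, as were 2 of the 3 lymphatic ones (20.4% of all genes). LYZ averaged 0.109 ± 0.0955 FPKM with 8OH-G miR-483 and 4.03 ± 0.339 FPKM with miR-483. It was below 1 FPKM in every 8OH-G miR-483 library, so it was tested, and counted here, only through its level with miR-483. The 1 Schwann cell marker tested was called higher (35.0% of all genes), and the 1 mural marker tested did not pass. The part of these markers in the fall of ITGB4 was not tested.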

How the data were processed

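Each of the 6 deposited files holds 1 column of values for 20792 rows, named by gene. The unit is stated nowhere; the values were taken as FPKM made by the authors, because they are decimal and the deposited totals exceed what CPM or TPM can reach. Per the submitters' processing notes, the build was hg19 and the tools included STAR, cutadapt, DESeq2 and HTSeq, without versions. Low values were searched for whole-read steps: within 0.02 log2, 17.3% of 127 low genes in 8OH-G miR-483 and 16.9% of 142 in miR-483 lay on a step at the best of 200 depth ratios, against medians of 11.0% and 11.3%, so reads were not recovered.

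Of these rows, 3204 shared 748 names and were left out. The 12216 genes that reached 1 FPKM in 3 or more libraries were fitted on log2(FPKM + 1) with limma 3.58.1 in R 4.3.3 (group only, trend and robust shrinkage, two-sided, Benjamini-Hochberg over all 12216, threshold 0.05). As this filter asks for as many libraries as 1 group holds, a gene can pass it through that group alone. PI16, LCN6, SDC1, CD37 and LYZ reached 1 FPKM only in the group where they were high. A positive fold change means higher with 8OH-G miR-483. When this comparison was tested on simulated data (12216 genes), the fit found 58 of 100 genes set to differ by 0.5 and 94 of 100 set to differ by 1 on the log2 scale. It also called 4 genes that were not set to differ. Only those few genes differed in the simulated data, while 55.4% of genes were called in the deposited data. The simulated shares therefore do not give the sensitivity of the comparison itself. The genes of the set, the lists and the tests were chosen with earlier results of these data known. Named were the genes of the set, the 3 next falls, the 5 nearest patterns, and in each list the genes past the threshold with a change of at least 1, otherwise up to 3 each way, and the 3 at the highest level. LAMA3, FERMT2 and GALK1 fall outside that rule, as do VWF and the other cell markers named. One gene of the lists is not reported here. Promoters are from RefSeq and were searched on both strands. Figures were drawn with matplotlib 3.10.9. Alternatives covered the pseudocount, filters, scaling, a replicate block, repeated names, variance shrinkage and each library left out.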

Additional observations from a re-analysis of the deposited data

How the results depend on the processing

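The log2 fold change of ITGB4 stayed between -5.22 and -5.05 over 14 alternatives, that of ITGA6 between -0.96 and -0.83 and that of ITGA3 between -1.12 and -1.004. Changing the filter, the replicate block, the repeated names or the variance shrinkage cannot move these fold changes. The ranges therefore come from the pseudocount, the scaling and the libraries left out. For ITGB4 the range restates the value by which it was chosen. Of 765 recomputed values for 55 named genes, 713 were counted as the same, 28 lost a call, 13 gained one and 9 changed sign. The other 2, both of ITGB4, moved beyond the spread between libraries. Counted as the same were values that kept their direction and side of the threshold, except for ITGB4. Its values were judged by direction and by that spread only. Under the settings that cannot move a fold change, direction could not change. Apart from COL17A1, the cell type markers were not among these 55 genes, so their calls are given for the main fit only. The number of set genes called higher was 1 as deposited and 0 after quantile normalization, where LAMB3 missed the threshold. The sign changes were in genes that were not called: under median-ratio scaling ITGB1 was at -0.0355, RPSA at -0.0121, PTK2 at -0.0225 and LAMA4 at -0.109, and under quantile normalization LAMA4 was at -0.0308. With single libraries left out, LAMA4 ran from -0.0218 to 0.0178 and SHC1 from -0.0645 to 0.0311. With each library left out in turn, 3772 to 4104 genes were called higher and 2087 to 2375 lower, 1 of the 7 set genes other than ITGB4 was higher each time and 3 or 4 lower, and 12 to 15 list genes were higher and 14 to 16 lower. Without single libraries ITGB4 made up 1.60% to 1.695% of the β4 and β1 sum with 8OH-G miR-483 and 39.6% to 40.3% with miR-483.

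Same-numbered libraries were not paired by the labels, and their deviations from the group means correlated at 0.025, 0.339 and 0.009 over genes. Between differently numbered libraries of the groups these correlations ran from -0.266 to 0.244. With the replicate number as a block, 4635 genes were called higher and 2677 lower, and of the 7 set genes other than ITGB4 1 was higher and 4 lower. Matches of the microRNA seed in 3′ untranslated regions were planned and not run. Unknown depth limits the lowest values, such as those of COL17A1, CD37 and SDC1.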
